A study of Mus musculus with 14 samples.

Results

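The colony-stimulating factor system was followed through 6 genes in macrophages from mouse mammary tumours: the receptor genes Csf1r, Csf2ra, Csf2rb, Csf2rb2 and Csf3r, and the ligand gene Csf1. They were chosen by name, with earlier results of these data known. All 6 were found among the 24556 genes of the expression table and passed the filter on low values, which kept 11886 genes. The tumours came from 4T1 cells, a mouse mammary carcinoma line, placed in the fat pad of Balb/c mice. Before injection the tumour cells had been cultured for 5 days with DMSO, the solvent control, or with 5 µM GSK269962A, a small-molecule kinase inhibitor. Only the tumour cells were pre-treated, so every macrophage described here came from an animal that had received DMSO-cultured or GSK269962A-cultured cells, called DMSO and GSK below. F4/80+ cells were pulled from the tumours with antibody-coated magnetic beads over a pair of columns in series, on day 8 (3 DMSO and 3 GSK libraries) or day 14 (4 DMSO and 4 GSK libraries). The labels number the libraries without saying whether each stands for its own mouse. The p-values therefore measure the spread between these samples, which may be technical. Ages, sexes and pooling of the animals are not given in the labels.

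Colony-stimulating factors steer the production, survival and activity of myeloid cells. CSF1 (M-CSF) binds the receptor tyrosine kinase encoded by Csf1r, which also binds IL-34 and on which most tissue and tumour macrophages depend. GM-CSF instead binds a specific alpha chain, Csf2ra, which then pairs with the shared beta chain Csf2rb and signals through JAK2 and STAT5. Mice carry a second beta chain gene, Csf2rb2, whose product serves IL-3, while Csf2rb serves GM-CSF, IL-3 and IL-5. Csf3r encodes the receptor for G-CSF and is best known from neutrophils. In bulk RNA, fewer cells of a type and less RNA per cell cannot be told apart, and this holds for every value below.

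Csf2ra and Csf2rb2 were higher in GSK macrophages on day 14, by 2.18-fold and 3.18-fold. The other 4 genes differed by 0.25 to 0.58 on the log2 scale on that day, in the same direction, and did not pass the test. On day 8 none of the 6 passed. Levels are the authors' deposited log2 expression values. Differences are log2 differences between group means from limma fitted to all 14 libraries, with p-values adjusted by the Benjamini-Hochberg method over 11886 genes and 0.05 as the threshold.

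**Figure D1:**
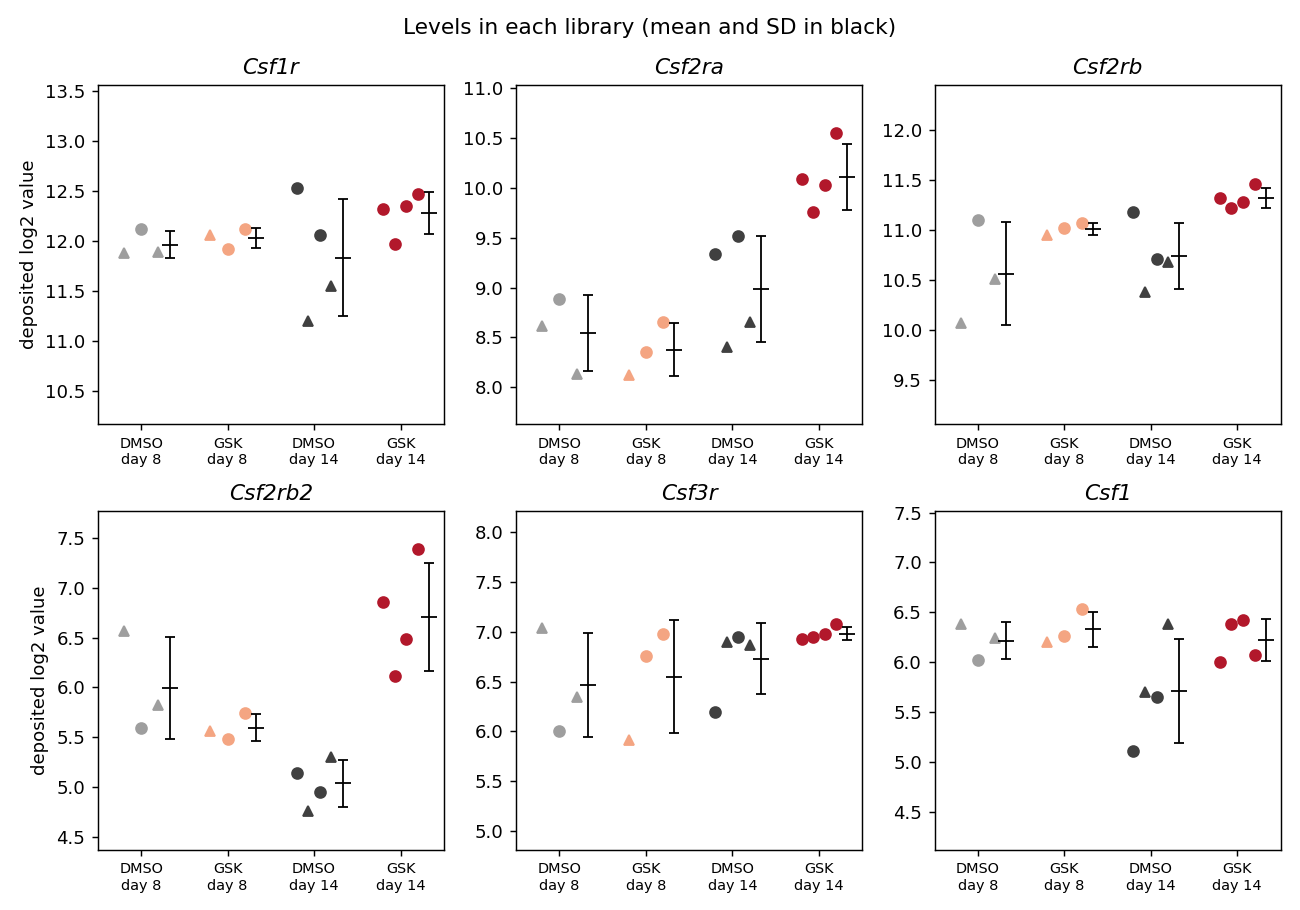
Deposited log2 value of each of the 6 genes in each of the 14 libraries, with the group mean and SD in black, on vertical axes that span the same number of log2 units. Circles are libraries in which AY036118 was the higher of AY036118 and Gm42418, ribosomal RNA genes that overlap, and triangles those in which Gm42418 was higher, and Csf2ra and Csf2rb2 of the 4 GSK day 14 libraries lie above all 4 DMSO day 14 libraries.

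Levels per kilobase of the longest coding transcript put the receptors in an order. This level is the deposited log2 value minus the log2 of the transcript length in kilobases. The transformation behind the deposited values is not stated, so the order between genes is approximate. The levels of Csf2rb and Csf2rb2 also depend on how reads were divided between them. Csf1r was highest with a mean of 9.80 ± 0.35 (SD, n = 14), above Csf2rb in all 14 libraries. Csf2rb stood at 8.63 ± 0.40 and Csf2ra at 8.19 ± 0.79. These neighbours changed places: Csf2rb was above Csf2ra in 10 of 14 libraries, but in 1 of the 4 GSK day 14 libraries. Csf2ra was above Csf3r (4.91 ± 0.41) in all 14 libraries. Csf3r was above Csf1 (4.04 ± 0.39) in 13 of 14. Csf1 and Csf2rb2 (3.60 ± 0.76) differed by less than their spread, with Csf1 above in 11 of 14 libraries and in 2 of the 4 from GSK day 14. The macrophage growth factor receptor thus had the highest level per kilobase of the 6, and the IL-3 beta chain and the ligand the lowest.

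Csf1r, on which macrophage survival depends, did not pass in any comparison as fitted here. Its deposited log2 values were 11.88, 12.12 and 11.89 in DMSO and 12.06, 11.92 and 12.12 in GSK on day 8. On day 14 they were 12.53, 11.20, 12.06 and 11.54 in DMSO and 12.32, 11.97, 12.35 and 12.47 in GSK. The groups overlapped on both days, and the DMSO day 14 libraries spread most, with an SD of 0.58 against 0.10 to 0.21 in the other groups. The difference between GSK and DMSO was 0.45 on day 14 (95% interval -0.01 to 0.91, limma adjusted p = 0.197) and 0.07 on day 8 (-0.46 to 0.60, limma adjusted p = 0.920). Within the libraries in which AY036118 was the higher ribosomal RNA gene, the day 14 difference was -0.02. Without DMSO day 14 replicate 1, the highest of its group, it was 0.68 and passed (limma adjusted p = 0.0384), as it did with library quality weights on all 14 libraries (0.54, limma adjusted p = 0.0369).

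Csf1, the gene for its ligand, ran in the range of 5.11 to 6.53 over all libraries. On day 14 it was 5.11, 5.71, 5.65 and 6.38 in DMSO and 6.0, 6.39, 6.43 and 6.07 in GSK, so that 1 DMSO library lay among the GSK ones. The difference of 0.51 (95% interval 0.06 to 0.96) did not pass (limma adjusted p = 0.131). Without DMSO day 14 replicate 4 it was 0.74 and passed (limma adjusted p = 0.0353), as it did with the neutrophil marker mean as a covariate (0.63, limma adjusted p = 0.0282) and within libraries with AY036118 higher (0.85, limma adjusted p = 0.0343). On day 8 the group means were 6.22 ± 0.18 in DMSO and 6.33 ± 0.18 in GSK (SD, n = 3 each).

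Csf2ra, the chain that makes the receptor specific for GM-CSF, was at 8.61, 8.89 and 8.14 in DMSO and 8.12, 8.36 and 8.66 in GSK on day 8. On day 14 it was at 9.34, 8.41, 9.51 and 8.66 in DMSO and at 10.09, 9.76, 10.03 and 10.55 in GSK. All 4 GSK libraries lay above all 4 DMSO libraries on day 14, while the day 8 groups overlapped. The day 14 rise was 1.13 (SE 0.24, 95% interval 0.61 to 1.64, limma adjusted p = 0.0121). On day 8 the difference was -0.17 (-0.76 to 0.43, limma adjusted p = 0.807). The difference between the 2 days' differences was 1.29 (SE 0.37) and did not pass (limma adjusted p = 0.504).

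The call for Csf2ra on day 14 held when any one library was left out except GSK day 14 replicate 4, the highest, without which the difference was 0.98 (limma adjusted p = 0.0596). Among the DMSO day 14 libraries, replicates 1 and 3, with AY036118 higher, had 9.34 and 9.51, and replicates 2 and 4, with Gm42418 higher, had 8.41 and 8.66. All 4 GSK day 14 libraries had AY036118 higher. Within libraries of that kind the difference was 0.68 (limma adjusted p = 0.0565), and with the kind as a term in the fit it was 0.81 (limma adjusted p = 0.0365). With the mean of the mitochondrially encoded genes, which moved with the day 14 groups, as a covariate it was 0.40 (limma adjusted p = 0.694).

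Csf2rb2, the mouse-specific beta chain that serves IL-3, had the largest difference of the 6 genes on day 14. Its values were 5.14, 4.76, 4.95 and 5.31 in DMSO and 6.86, 6.11, 6.48 and 7.38 in GSK. The lowest GSK library lay above the highest DMSO library by more than the whole range of the DMSO libraries. The rise was 1.67 (SE 0.25, 95% interval 1.14 to 2.20, limma adjusted p = 0.00254), and the gene ranked 19th of 11886 by p. It passed in all 14 fits that left out a library, with differences from 1.44 to 1.87. Within libraries with AY036118 higher the difference was 1.66 (limma adjusted p = 0.0149). With the mitochondrial mean as a covariate it was 1.28 and the call was lost (limma adjusted p = 0.600).

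On day 8 Csf2rb2 stood at 6.57, 5.59 and 5.82 in DMSO and at 5.57, 5.49 and 5.74 in GSK. The groups overlapped, with a difference of -0.40 (95% interval -1.01 to 0.21, limma adjusted p = 0.518). From day 8 to day 14 the gene went lower in DMSO and higher in GSK. In DMSO every day 14 library lay below every day 8 library, with a difference of -0.96 (SE 0.27, limma adjusted p = 0.103). In GSK every day 14 library lay above every day 8 library, and the gene rose by 1.11 (SE 0.27, limma adjusted p = 0.0267). The GSK call was lost without GSK day 8 replicate 1 or 2, or without GSK day 14 replicate 1 or 4. The difference between the GSK-minus-DMSO differences of the days was 2.07 (SE 0.38). It ranked 4th of all genes by p and did not pass after adjustment (limma adjusted p = 0.134). It passed without GSK day 14 replicate 2 (limma adjusted p = 0.0183), and the fall in DMSO passed without DMSO day 8 replicate 2 (limma adjusted p = 0.0499).

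Csf2rb, the shared beta chain, was at 11.18, 10.38, 10.70 and 10.68 in DMSO and at 11.32, 11.22, 11.28 and 11.46 in GSK on day 14. The groups did not overlap, but the closest pair, DMSO replicate 1 and GSK replicate 2, lay 11.18 against 11.22. The difference was 0.58 (95% interval 0.18 to 0.99) and missed the threshold (limma adjusted p = 0.0616). It passed without DMSO day 14 replicate 1 (0.73, limma adjusted p = 0.0322), and at the same size of difference without DMSO day 8 replicate 1 or 2. On day 8 the values were 10.07, 11.10 and 10.51 in DMSO and 10.95, 11.02 and 11.07 in GSK, a difference of 0.45 (-0.02 to 0.92, limma adjusted p = 0.329). The mean of both days' differences was 0.52 (SE 0.15) and passed (limma adjusted p = 0.0295). In that averaged comparison Csf2rb2 passed too (0.64, SE 0.19, limma adjusted p = 0.0364), although its differences on the days had opposite signs. Each of these calls in the averaged comparison was lost in 7 of the 14 fits that left out a library, with adjusted p up to 0.0727 for Csf2rb and 0.0922 for Csf2rb2. Both were lost without DMSO day 8 replicate 3, GSK day 8 replicate 2 or 3, DMSO day 14 replicate 2 or GSK day 14 replicate 4. Csf2rb was also lost without DMSO day 8 replicate 1 or DMSO day 14 replicate 4, and Csf2rb2 without DMSO day 8 replicate 2 or GSK day 14 replicate 1.

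Csf3r, the G-CSF receptor, was at 6.20, 6.90, 6.95 and 6.87 in DMSO and at 6.92, 6.95, 6.97 and 7.08 in GSK on day 14. DMSO replicate 1 stood apart from its group, while the other DMSO libraries overlapped with GSK. The difference was 0.25 (95% interval -0.27 to 0.77, limma adjusted p = 0.550), and on day 8 it was 0.09 (-0.51 to 0.69, limma adjusted p = 0.909).

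**Figure D2:**
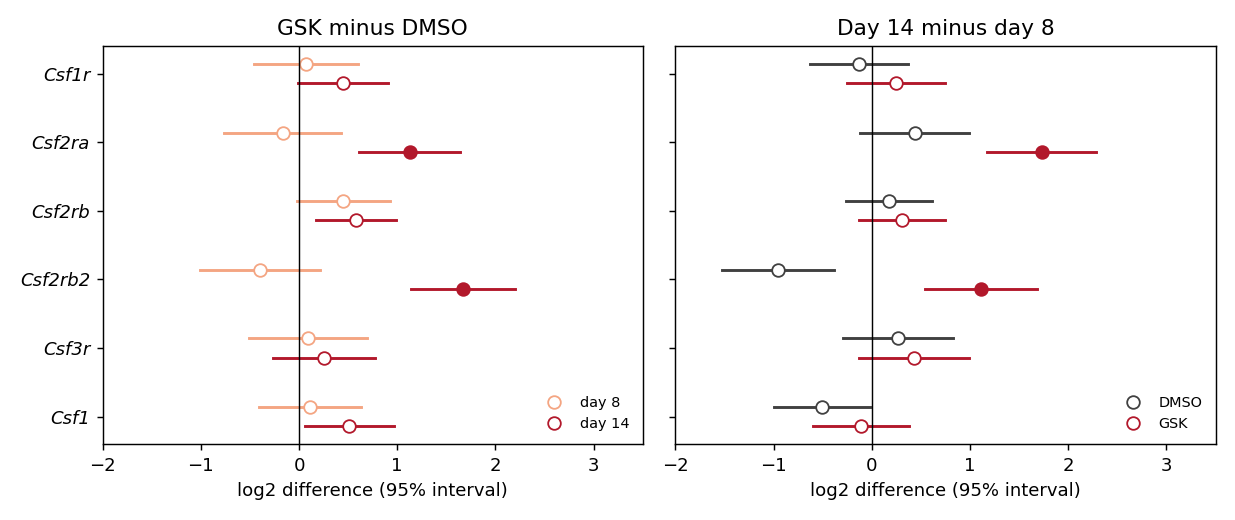
Log2 difference and 95% interval from limma for each of the 6 genes, GSK minus DMSO on each day at left and day 14 minus day 8 in each pre-treatment at right; filled points passed at an adjusted p of 0.05. Filled points are Csf2ra and Csf2rb2 on day 14 at left, and the same genes in GSK at right.

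Set against all genes, the count of 2 of 6 higher on day 14 stood beside 5.10% of 11886 genes that rose and 10.8% that passed in either direction. The 6 genes were chosen with earlier results of these data known, so these shares are a description and no test. The median difference of the 6 was 0.55, against 0.02 over all genes. Groups did not overlap in 3 of 6, all higher, against 11.2% of all genes higher without overlap. On day 8, 0 of 6 passed in limma against 0.194% of all genes, and 0 of 6 had a p under 0.05 before adjustment. No member had groups without overlap on day 8, against 16.2% of all genes. The average of both days called 2 of 6, against 14.5% of all genes in either direction. The difference between the days called 0 of 6 against 0.00841% of all genes, with 2 of 6 at a p under 0.05 before adjustment.

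Time was compared within each pre-treatment with the same libraries, so these comparisons share their groups with those above. In GSK, Csf2ra rose by 1.73 from day 8 to day 14 (SE 0.26, 3.32-fold, limma adjusted p = 0.00268). The highest GSK day 8 value was 8.66 and the lowest GSK day 14 value 9.76. In the same comparison 7 of 9 markers of 4T1 epithelium fell and 3 of 8 monocyte markers rose. Of the other marker lists, 2 of 12 macrophage markers rose, and 2 of 6 dendritic cell, 1 of 7 neutrophil and 1 of 8 endothelial markers fell. With the epithelium mean as a covariate the difference was 0.76 for Csf2ra and 0.72 for Csf2rb2, and neither passed (limma adjusted p = 0.9998 for both). In GSK that mean was 5.88 to 7.33 on day 8 and 4.96 to 5.12 on day 14, without overlap. Its part therefore cannot be told apart from that of the day for any gene. Without that covariate, Csf2ra and Csf2rb2 made 2 of 6 genes that rose, against 3.05% of all genes that rose and 7.01% in either direction. Csf2rb differed by 0.31 without overlap (limma adjusted p = 0.384), and with Csf2ra and Csf2rb2 it made 3 of 6 higher without overlap, against 15.1% of all genes. In DMSO, 0 of 6 passed in limma, against 0.824% of all genes, and 2 had a p under 0.05 before adjustment: Csf2rb2 at -0.96 and Csf1 at -0.51. Csf2rb2 was the only 1 of the 6 without overlap there, against 5.98% of all genes that were lower without overlap. Csf2ra differed by 0.44 in DMSO (limma adjusted p = 0.443).

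The balance between receptor chains can be read within each library, since library-wide scaling cancels. These differences between genes were picked after their values were seen, so a test of them is a description only. In 6 exact permutation tests of GSK against DMSO, none passed after Benjamini-Hochberg adjustment, and with these group sizes none could have passed. The smallest p that such a test can give before adjustment was 0.0286 on day 14 and 0.1 on day 8. The lowest permutation adjusted p was 0.0857, on day 14, for Csf2rb2 minus Csf2rb and for Csf2ra minus Csf1r. Before adjustment both were at the smallest p possible on day 14, so these tests decide nothing. Csf2rb2 minus Csf2rb averaged -5.70 in DMSO and -4.61 in GSK on day 14, and -4.57 and -5.41 on day 8. On an unlogged scale Csf2rb2 made up on average 1.92% of the summed beta chains in DMSO (1.49% to 2.36%) and 4.06% in GSK (2.82% to 5.59%) on day 14. On day 8 it made up 4.66% ± 3.08 and 2.29% ± 0.17 (SD, n = 3 each), where DMSO replicate 1 set the wide spread. These percentages are approximate, since the transformation of the values is not stated and the division of reads between the beta chains is uncertain. Csf2ra minus Csf1r, the GM-CSF receptor's own chain against the CSF1 receptor, averaged -2.85 in DMSO and -2.17 in GSK on day 14, and -3.42 and -3.66 on day 8. Csf2ra minus Csf2rb averaged -1.76 in DMSO and -1.21 in GSK on day 14, and -2.02 and -2.64 on day 8.

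The beta chain genes are neighbours of opposite strand and nearly the same sequence, which bears on how reads are divided between them. In GENCODE M21 on GRCm38, Csf2rb (ENSMUSG00000071713) lies at chr15:78325752-78353847 on the plus strand and Csf2rb2 (ENSMUSG00000071714) at chr15:78282507-78305721 on the minus strand. Their coding sequences of 2688 and 2634 bases aligned over 2628 bases with 95.2% identity and 125 mismatches. The longest identical run was 242 bases. Of all 31-base words in its transcripts, Csf2rb shared 19.7% with other genes and Csf2rb2 30.1%. The stretch of 90 coding bases with the most mismatches held 16, while the median of all 1310 such stretches held 2 and some held 0. This stretch is shown because, among the 1310 compared, it held the most bases that differ between the genes. Only gap-free stretches within a single coding exon of each gene were compared, and untranslated parts were not. Csf2rb is read from chr15:78338897-78338986 on the plus strand and Csf2rb2 from chr15:78294345-78294434 on the minus strand, both 5′ to 3′, with mismatched bases in capitals.
Csf2rb: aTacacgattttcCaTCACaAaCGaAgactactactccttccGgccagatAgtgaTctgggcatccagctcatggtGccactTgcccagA
Csf2rb2: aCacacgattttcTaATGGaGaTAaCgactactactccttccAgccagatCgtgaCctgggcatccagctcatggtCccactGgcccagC

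The values of both genes are therefore uncertain as to the split between them, as far as read assignment by RSEM goes. When the unlogged values of both were summed, the day 14 difference of the sum was 0.61 and passed (limma adjusted p = 0.0446). Csf2rb2 made up only 1.49% to 2.36% of that sum in DMSO and 2.82% to 5.59% in GSK on day 14. The sum is thus nearly Csf2rb alone and cannot show whether the Csf2rb2 rise depends on the split. Of the other members, Csf1r shared 15.0% of its words, mostly with its neighbour Hmgxb3, and Csf3r 23.1%, mostly with the gene model AC105061.2. Csf2ra shared 0.443% and Csf1 none.

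Csf2ra (ENSMUSG00000059326, chr19:61223957-61228429, minus strand) and Csf2rb2 rose together on day 14, and their promoter windows from RefSeq's GRCm38.p6 table are shown for that reason. Both end at the base before the first transcript start in GENCODE, at chr19:61228430-61228668 and chr15:78305722-78305971, and read 5′ to 3′ on the minus strand. Capitals mark matches to 4 motifs that were searched on both strands: GAGGAA (core of PU.1 sites), TTCNNNGAA (Stat5), TTGCNNAA (a C/EBP form) and TGACGTCA (CREB).
Csf2ra promoter: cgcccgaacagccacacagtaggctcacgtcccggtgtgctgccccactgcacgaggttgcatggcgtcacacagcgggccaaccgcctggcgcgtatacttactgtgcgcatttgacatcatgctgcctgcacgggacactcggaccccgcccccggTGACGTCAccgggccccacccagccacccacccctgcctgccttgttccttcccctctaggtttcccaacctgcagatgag
Csf2rb2 promoter: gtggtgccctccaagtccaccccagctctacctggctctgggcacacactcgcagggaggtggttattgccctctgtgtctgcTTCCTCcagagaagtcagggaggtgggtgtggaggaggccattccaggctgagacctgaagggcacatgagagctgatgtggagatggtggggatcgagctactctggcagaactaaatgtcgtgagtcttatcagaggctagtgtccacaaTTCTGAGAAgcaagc

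The Csf2ra window of 239 bases had a GC content of 65.3%, against a median of 52.4% over 32851 promoters, and held the CREB motif once, starting 81 bases before the transcript start. That motif was in 1.55% of windows of 250 bases. The Csf2rb2 window of 250 bases held the PU.1 core on the reverse strand (printed as TTCCTC) and the Stat5 motif once each, starting 167 and 15 bases before the start. These were in 23.3% and 7.02% of windows. No motif overlapped another, neither window held the C/EBP form (9.56% of windows), and the windows of Csf1 and Csf3r held none of the 4. A match is a description of letters only, and the motifs were chosen with the sequences in view.

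Around the receptors, 69 genes of the same pathways had been listed, also with earlier results of these data known, and 59 of them passed the filter. On day 14, limma called 8 of these 59 higher and 4 lower, against 5.10% of all genes higher and 10.8% in either direction. Their median difference was 0.07, and 24 of them had a p under 0.05 before adjustment. The 4 that changed in the list of 14 adaptors, PI3K and MAP kinases and of 9 JAK-STAT and Src-family genes were Akt1, Tyrobp, Jak2 and Mapk3. Jak2, the kinase bound to the beta chain, was at 8.06, 7.86, 8.06 and 8.17 in DMSO and at 8.57, 8.58, 8.84 and 8.76 in GSK, without overlap, and rose by 0.65 (SE 0.19, limma adjusted p = 0.0396). Stat5a, the transcription factor downstream, differed by 0.68 and did not pass (limma adjusted p = 0.0691). Tyrobp, an adaptor used by macrophage receptors, rose by 0.96 (limma adjusted p = 0.0193). Mapk3, which encodes ERK1, fell by 0.95 on the log2 scale (limma adjusted p = 0.0101).

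Akt1, a kinase downstream of PI3K, followed a course over the groups like that of Csf2rb2. It was at 6.23, 4.91, 5.97 and 5.95 in DMSO and at 7.07, 6.41, 6.63 and 7.35 in GSK on day 14, and rose by 1.10 (SE 0.30, limma adjusted p = 0.0317). On day 8 it was at 7.34, 6.03 and 6.28 in DMSO and at 5.93, 5.88 and 5.76 in GSK, where every GSK library lay below every DMSO library (difference -0.69, limma adjusted p = 0.336). The difference between the days' differences, 1.80, did not pass (limma adjusted p = 0.504).

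Among 11 negative regulators, 3 rose on day 14 and 0 fell, beside 5.10% of all genes that rose. Dok1, an adaptor that restrains tyrosine kinase signals, was at 6.01, 5.52, 6.04 and 6.07 in DMSO and at 6.95, 6.58, 6.95 and 6.94 in GSK. It rose by 0.94 (SE 0.16, limma adjusted p = 0.00548), with no overlap between groups. Cbl, the ubiquitin ligase that marks the CSF1 receptor for degradation, rose by 0.73 (limma adjusted p = 0.0380). Socs2 rose by 0.55 (limma adjusted p = 0.0476). Socs3, which restrains the G-CSF receptor, had the widest difference of the list, 1.19, but its DMSO libraries ranged from 9.08 to 10.87 and it did not pass (limma adjusted p = 0.0654). In the average of both days Socs3 rose by 0.97 (limma adjusted p = 0.0444), a call lost in 11 of the 14 fits that left out a library.

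Of 7 transcription factors of the receptor genes that passed the filter, 1 fell on day 14 and none rose, a share near the 10.8% of all genes called in either direction. This was Cebpb, a C/EBP factor of myeloid cells, at 11.01, 11.39, 10.79 and 11.24 in DMSO and 10.13, 10.02, 10.13 and 9.59 in GSK. The difference was -1.14 (SE 0.17, limma adjusted p = 0.00271). Spi1, which encodes PU.1, differed by 0.13 (limma adjusted p = 0.659). Of 4 genes for receptor shedding, Adam10, a membrane protease, rose by 0.81 (limma adjusted p = 0.0427) and Rhbdf2, a partner of the protease ADAM17, fell by 0.49 on the log2 scale (limma adjusted p = 0.0381).

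Of 9 GM-CSF and Stat5 target genes, 1 rose and 1 fell, beside 10.8% of all genes called. Ccl17, a chemokine gene induced by GM-CSF, was at 4.40, 3.98, 4.31 and 3.90 in DMSO and at 4.43, 4.98, 5.26 and 4.76 in GSK on day 14. The groups did not overlap by a narrow gap, and the rise was 0.71 (limma adjusted p = 0.0276). Bcl2l1, which encodes the survival protein BCL-XL, fell by 0.76 on the log2 scale (limma adjusted p = 0.0195). Of the ligands, Csf3 and Il34 were measured and differed by -0.29 and -0.08 on day 14 (limma adjusted p = 0.368 and 0.840). Csf2, Il3 and Il5 were not found by symbol among the genes of the expression table and could not be analysed. Il3ra, the alpha chain for IL-3 that pairs with either beta chain, differed by -0.63 on day 14 (limma adjusted p = 0.169), opposite in sign to Csf2rb2, and passed only in the average of both days (-0.71, limma adjusted p = 0.0415), a call lost in 9 of the 14 fits that left out a library and in 6 of 16 other settings.

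Of the 12 pathway genes called on day 14, 3 passed in every fit that left out a library: Cebpb, Dok1 and Mapk3. The other 9 lost the call in 2 to 9 of those 14 fits. The count of 12 became 3 with no filter, with the ribosomal RNA term or with the epithelium covariate, and 7 within libraries with AY036118 higher. With the mitochondrial covariate it was 0, where Cebpb was at -0.59, Dok1 at 0.57 (limma adjusted p = 0.600 for both), Mapk3 at -0.67 (limma adjusted p = 0.603) and Tyrobp at 0.14 (limma adjusted p = 0.873). On day 8 none of the 59 passed in limma, against 0.194% of all genes (6 had a p under 0.05 before adjustment). None passed over time in DMSO, against 0.824% of all genes (13 had a p under 0.05 before adjustment). Over time in GSK, 4 of the 59 passed, a share near the 7.01% of all genes called in either direction. Adam10 (1.17) and Sh2b3 (0.68) rose, and Timp3 (-1.17) and Mapk3 (-0.79) fell, with limma adjusted p from 0.0190 to 0.0452. Each of these 4 lost its call in at least 2 of the fits that left out a library. In the average of both days Dok1, Cbl, Jak2, Tyrobp and Socs2 also rose, by 0.42 to 0.70, and Cebpb (-0.98) and Mapk3 (-0.69) fell, with limma adjusted p from 0.000704 to 0.0418. The 9 of 59 called in the average were a share near the 14.5% of all genes called in either direction. Of these 9 calls, 3 held in every fit that left out a library (Cebpb, Dok1 and Mapk3), and Socs2 lost its call in 11 of 14.

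**Figure D3:**
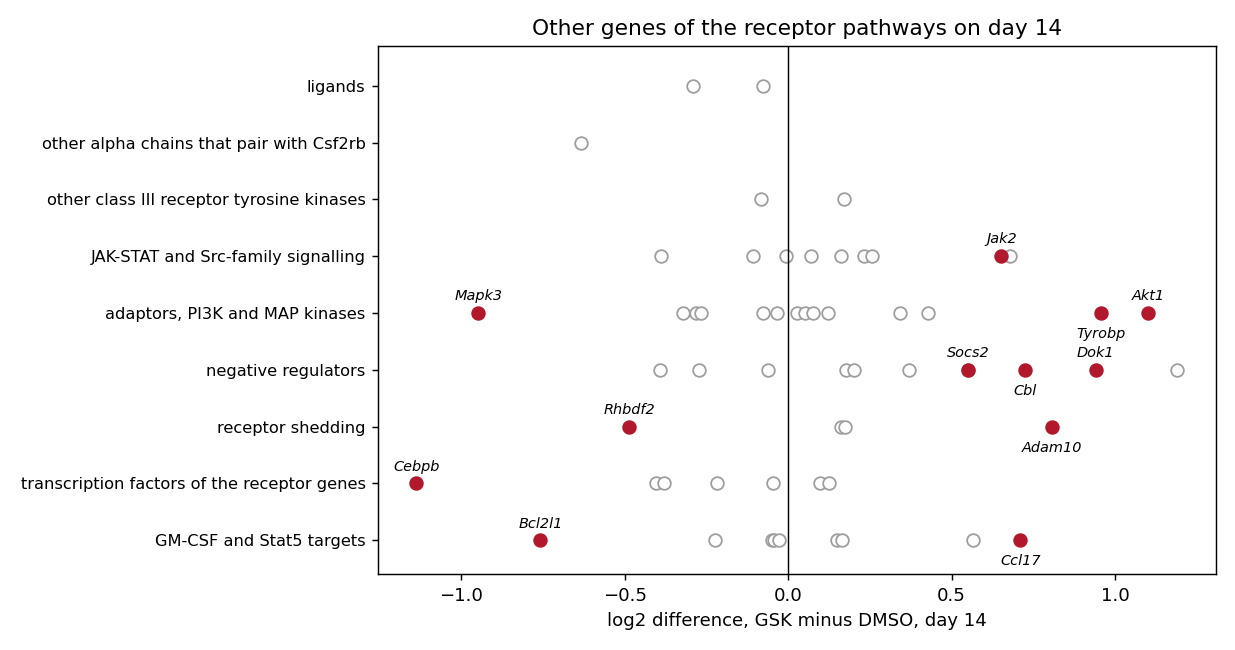
Log2 difference of GSK and DMSO on day 14 for the 59 pathway genes that passed the filter, 1 row for each list; filled and named points passed at a limma adjusted p of 0.05. The 8 filled points at right lie between 0.55 and 1.10 and the 4 at left between -1.14 and -0.49.

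Markers of the isolated fraction were read beside these results. The 12 macrophage markers averaged 11.61 and 11.60 on day 8 and 11.90 and 12.09 on day 14 (DMSO and GSK). Of these, 3 rose on day 14: Adgre1, which encodes F4/80 itself, by 0.70 (limma adjusted p = 0.0413), Cd68 by 1.04 and Lyz2 by 0.81. C1qa (-0.85) and Itgam (-0.59) fell. Over all genes, 5.10% rose on day 14 and 10.8% were called in either direction. The summed macrophage list ranged from 17.18 to 17.92 in DMSO and from 16.98 to 17.33 in GSK on day 14. Markers of neutrophils, from which Csf3r is best known, were mixed. Of 14 measured, 7 passed the filter, Elane and Mpo had log2 group means of -2.06 to -1.85, and Ly6g and Cxcr2 had means of 2.63 to 3.17. Retnlg and Mmp9 were high, at 11.08 and 12.62 in DMSO and 10.49 and 11.93 in GSK on day 14. The summed neutrophil list ranged from 13.05 to 13.44 in DMSO and from 12.45 to 13.08 in GSK on day 14, carried by Mmp9, which fell by 0.70 on the log2 scale.

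Of the dendritic cell markers, Flt3 and Clec9a were near the floor, and the summed list ranged from 8.88 to 9.42 in DMSO and from 8.27 to 8.78 in GSK on day 14. The summed 4T1 epithelium list ranged from 10.31 to 10.99 in DMSO and from 10.24 to 10.72 in GSK on day 14. On day 8 it ranged from 11.18 to 11.52 in DMSO and from 10.81 to 11.92 in GSK. With the mean of that list as a covariate, the day 14 rise was 1.59 for Csf2rb2 (limma adjusted p = 0.0097) and 0.94 for Csf2ra (limma adjusted p = 0.0322), while the rises over time in GSK were lost, as given above. With the neutrophil mean as a covariate they were 1.69 for Csf2rb2 (limma adjusted p = 0.00226) and 1.13 for Csf2ra (limma adjusted p = 0.0101) on day 14. Of 8 monocyte markers 1 rose on day 14, Chil3 by 1.72 (limma adjusted p = 0.00741), beside 5.10% of all genes that rose. Only 4 of the 8 had a positive difference. The summed monocyte list ranged from 11.83 to 12.23 in DMSO and from 11.69 to 12.04 in GSK. The part of the lists other than epithelium and neutrophils in these results was not tested.

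The level of mitochondrially encoded genes moved with the day 14 groups. The mean of 13 mitochondrially encoded protein genes was 9.52 to 10.12 in DMSO and 10.23 to 10.97 in GSK, without overlap, and 9.81 ± 0.17 and 9.88 ± 0.14 on day 8 (SD, n = 3 each). With this mean as a covariate, chosen after the data were seen, the day 14 calls for Csf2ra and Csf2rb2 were lost, and 2 of all genes passed. Since the day 14 groups did not overlap in this mean, its part cannot be told apart from that of the pre-treatment. Whether it reflects library quality or the cells was not tested. In the other settings run, the day 14 call for Csf2rb2 held.

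**Figure D4:**
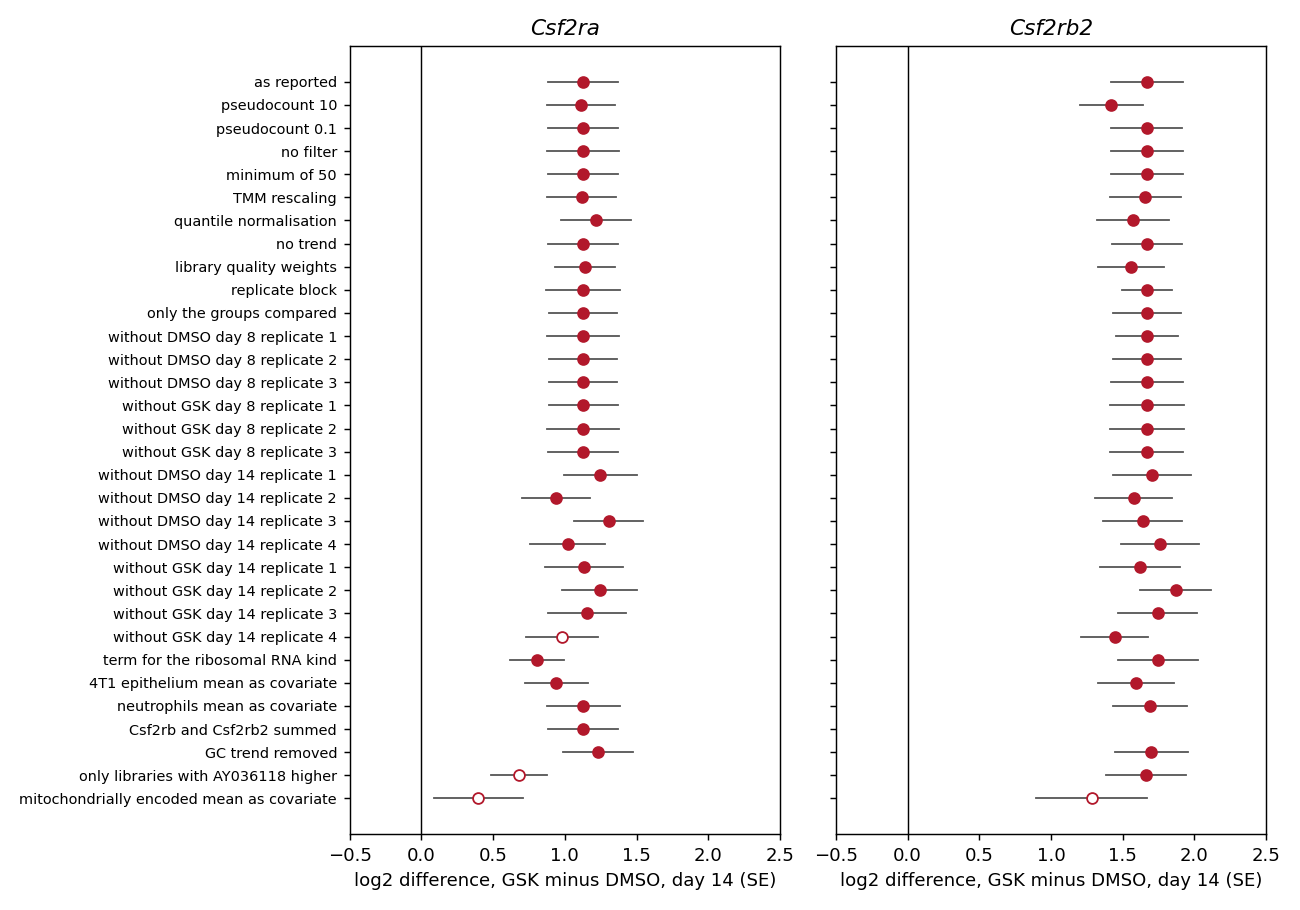
Log2 difference of GSK and DMSO on day 14, with its SE, for Csf2ra and Csf2rb2 in the fit as reported and under each other setting, including each left-out library; filled points passed at a limma adjusted p of 0.05 and a gap marks a setting that does not apply. All points lie to the right of 0, from 0.40 to 1.31 for Csf2ra and from 1.28 to 1.87 for Csf2rb2.

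The genes whose values followed each member most closely over the 14 libraries were named by Pearson's r. This is a description, since libraries share their groups, their day and possibly their quality. For Csf2ra these were Cd81 (0.97), Tmx1 (0.96) and Bin2 (0.95). For Csf2rb2 they were Pdcd4 (0.91), Fth1 (0.89) and Akt1 (0.89). Csf2rb ran with Uck2 (0.96), Insl3 (0.96) and Cox6c (0.95), and Csf1r with Tpd52l2 (0.95), Rpl15 (0.94) and Gng5 (0.93). Csf3r ran with Fip1l1 (0.96), Sat1 (0.94) and Pdcd6ip (0.94), and Csf1 with Lpin1 (0.86), Ankrd55 (0.85) and Wdr35 (0.84). No gene appeared in more than 1 of these lists of 3. Among the members, the closest pair was Csf1r and Csf2rb (0.73), while Csf2rb and Csf2rb2 had 0.40 and Csf1r and its ligand gene Csf1 had -0.18.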

How the data were processed

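The deposited table holds log2 expression values of 24556 mouse Ensembl genes in 14 libraries. Per the submitters' processing notes, Bowtie2, RSEM 1.2.29 and DESeq2 1.12.4 were used with mm10 and GRCh38, and the transformation that gave the values is not given in the sources used here. No counts were used, so the depth is unknown. Symbols and coordinates came from GENCODE M21 (GRCm38, the assembly of mm10), where 24470 identifiers matched and 86 did not. Genes with an unlogged value of at least 10 (log2 of 3.32) in at least 3 libraries were kept, which left 11886. limma 3.58.1 (R 4.3.3) was fitted to 4 group means, with eBayes and a mean-variance trend, and tests were two-sided. On simulated data for the day 14 comparison over 11886 genes, 86.2% of 94 genes changed by 1 on the log2 scale and 99.1% of 106 changed by 2 were recovered. The simulated noise was normal, independent between genes and libraries, and of the same SD in all groups for a given gene. Recovery in the real data, where libraries may share deviations, can differ.

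The 6 members and the gene lists were chosen with earlier results of these data known. Named were all members in each comparison and pathway genes past the threshold (up to 4 of a list). The 3 genes nearest to each member by Pearson's r were named too, without numbered Gm or Rik models. Outside this rule, Stat5a, Spi1, Csf3 and Il34 were named although they did not pass on day 14. Words of 31 bases were compared between GENCODE transcripts. Alternatives were pseudocounts of 0.1 and 10, no filter, a minimum of 50, TMM and quantile scaling, no trend, library weights, a replicate block, only the groups compared, each library left out, covariates for ribosomal RNA kind, 4T1 epithelium and neutrophils, and summed beta chains. Removal of the GC trend, libraries of 1 ribosomal RNA kind and the mitochondrial covariate were added after the data were seen.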

Additional observations from a re-analysis of the deposited data

Results flagged for a closer look

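Csf3r in DMSO day 14 replicate 1 stood apart from the other 3 libraries of its group. Its value was 6.1952 on the log2 scale, against 6.87 to 6.95 in the others, and the gap made up 0.897 of the group's range, above the limit of 0.829 for 4 samples. Chance alone marks about 1 in 20 groups, and 12 groups of 4 libraries were looked at.

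Csf2rb2 moved in opposite directions over time. All 4 DMSO day 14 libraries lay below all DMSO day 8 libraries, and all 4 GSK day 14 libraries lay above all GSK day 8 libraries. The difference between these changes was 2.0665 on the log2 scale, which in limma did not pass after adjustment over all genes (adjusted p = 0.134).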

How the results depend on the processing

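Without a stated transformation or counts, depth cannot be judged, and changes of low genes may be understated. Replicate numbers did not pair the samples: correlations of same-numbered deviations ran from -0.09 to 0.02 on day 8 and from -0.16 to 0.17 on day 14. No scaling moved the median of all genes by over 0.1.

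The number of the 6 genes that passed in limma was 2 on day 14, 2 in the average of both days, 0 for the difference between the days, 0 over time in DMSO and 2 over time in GSK. With 1 library left out it ranged from 1 to 4, 0 to 3, 0 to 1, 0 to 1 and 1 to 2, in that order. On day 14 it became 4 with library quality weights and 0 with the mitochondrial covariate. In the average it became 1 with quantile normalisation, the replicate block or the summed beta chains, and 0 with no filter, the ribosomal RNA term or the mitochondrial covariate. Over time in GSK it became 1 with no filter, the summed chains or only AY036118-high libraries, and 0 with the epithelium or the mitochondrial covariate. With the replicate block it became 1 for the difference between the days and 1 over time in DMSO, both Csf2rb2 (limma adjusted p = 0.0131 and 0.0321). Csf2rb on day 14 passed in 3 of the 14 fits that left out a library and in 5 of 17 other settings. The cause of these shifts was not tested.

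The differences that changed sign had not passed, apart from Sh2b3 over time in GSK, which was -0.10 with the epithelium covariate. On day 8, Csf1r became -0.0083 with quality weights, -0.0815 with the ribosomal RNA term and -0.10 in AY036118-high libraries. There, Csf2rb became -0.0574 and Csf2rb2 0.0215. In Gm42418-high libraries Csf3r became -0.78 and Csf1 -0.12. On day 8 only 1 DMSO library was AY036118-high and only 1 GSK library was Gm42418-high. Day 8 differences within libraries of either kind thus rest on a single library in 1 of the groups. So do the average, the difference between the days and the change over time in DMSO in AY036118-high libraries. Csf2ra on day 8 became 0.15 with the epithelium covariate and ranged from -0.37 to 0.0038 with 1 library left out. Csf3r on day 8 ranged from -0.14 to 0.41 with 1 left out. On day 14, Csf1r became -0.016 in AY036118-high libraries and -0.20 with the mitochondrial covariate, and in the average -0.0592 and -0.0926. For the difference between the days, Csf3r became -0.27 with quality weights, -0.25 with the epithelium covariate, -0.45 in AY036118-high libraries, and ranged from -0.15 to 0.39 with 1 left out. There, Csf2rb ranged from -0.14 to 0.38 with 1 left out, and with the mitochondrial covariate Csf1r became -0.21 and Csf2rb -0.29. Over time in DMSO, Csf1r became 0.17 and Csf2rb -0.16 in AY036118-high libraries. With 1 left out they ranged from -0.362 to 0.0814 and from -0.0706 to 0.44, and Csf2ra became -0.0324 and Csf3r -0.12 with the epithelium covariate. Over time in GSK, the epithelium covariate gave -0.17 for Csf1r and -0.38 for Csf3r, and the neutrophil covariate 0.14 for Csf1. The mitochondrial covariate gave -0.39 for Csf1r, -0.15 for Csf2rb and 0.20 for Csf1.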
